A study of Drosophila melanogaster with 8 samples.

Results

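The genes described here are the glutathione S-transferases (GSTs) and the UDP-glycosyltransferases (UGTs) of Drosophila melanogaster, measured in ovaries with and without overexpression of Stonewall (Stwl), which binds DNA in female germ cells. The members were chosen by symbol from the authors' deposited comparison, as names that start with Gst and a capital letter or with Ugt and a digit. The measured value that chose them was detection, since a gene had to be listed in that comparison, and their difference between the groups played no role in the rule. This gave 66 of the 11397 listed genes, 34 GSTs and 32 UGTs. The annotation holds 70 such genes. The other 4 had means over the 8 libraries of 0.0823 TPM (GstE4), 0.0108 TPM (Ugt35E1), 0.00324 TPM (Ugt35E2) and 0.00284 TPM (Ugt49B2). Just inside the rule, the members with the lowest mean normalised counts in the authors' deposited table were Ugt37A2 with 1.79 and Ugt37C1 with 1.84.

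GSTs are mostly soluble enzymes that join the tripeptide glutathione to electrophilic molecules, and several also reduce peroxides or isomerise small metabolites. UGTs sit in the membrane of the endoplasmic reticulum and transfer a sugar from a UDP-sugar to small lipophilic molecules such as hormones, pigments, odorants and plant compounds. Both families are known for high expression in the fly midgut, Malpighian tubules and fat body, where they act on dietary and environmental chemicals. Members with endogenous substrates also exist, among them GstE14, which is needed for ecdysteroid synthesis in the fly.

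Polyadenylated RNA was sequenced from 4 StwlOE samples, with Stwl overexpression (StwlEY in the sample titles), and 4 Control samples, without it. Both groups were ovaries enriched for cells like germline stem cells (GSC-like cells), taken from females 4 to 5 days old, with about 35 ovaries pooled in a sample. The alleles, drivers and strain background behind the enrichment and the overexpression were not given in the sources used here, so a strain difference and an effect of Stwl cannot be told apart. Nor do the labels say whether replicates were separate crosses, so the p-values reflect only how these samples vary, which may be technical.

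The stwl gene itself had 45.5, 55.5, 62.6 and 67.8 TPM in StwlOE libraries 1 to 4, against 25.1, 21.9, 23.6 and 23.5 TPM in control libraries 1 to 4 (log2 fold change 1.25, SE 0.115, limma adjusted p = 0.000323). TPM, a transcript abundance corrected for gene length, scales each library to the same sum, so sequencing depth is unknown, and each library held 8618 to 8941 genes with at least 1 TPM. The label of GSC-like cells covers part of the RNA only. Marker genes of germ cells summed to between 1035 and 1463 TPM in StwlOE and between 1350 and 1483 TPM in controls. Chorion and vitelline membrane genes of follicle cells summed to between 31430 and 50300 TPM in StwlOE and between 32210 and 45300 TPM in controls. The vitelline membrane gene Vm26Aa dominated that sum, with 32740 ± 7324 TPM in StwlOE and 37570 ± 5725 TPM in controls, and hides the chorion genes, of which Cp15 averaged 1761 ± 1807 TPM in StwlOE and 52.8 ± 49.2 TPM in controls. In bulk RNA, fewer cells of a type and less RNA per cell cannot be told apart. StwlOE library 1 stood apart from the rest: it was the lowest of the 8 libraries for 40.7% of the 11397 genes.

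GSTs were far more abundant than UGTs in these ovaries. Averaged over the 8 libraries, 4 GSTs had at least 100 TPM, 15 had 10 to 100, 8 had 1 to 10 and 7 had less than 1. No UGT reached 100 TPM, 5 had 10 to 100, 11 had 1 to 10 and 16 had less than 1. The median member had 17.5 TPM among GSTs and 0.985 TPM among UGTs. The 4 GSTs above 100 TPM were GstD1, GstS1, GstE12 and GstO2, and the most abundant UGT was Ugt317A1, which ranked 2277 by level among the 14094 genes of the TPM table. GstD1 ranked 300 in the same table.

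**Figure D1:**
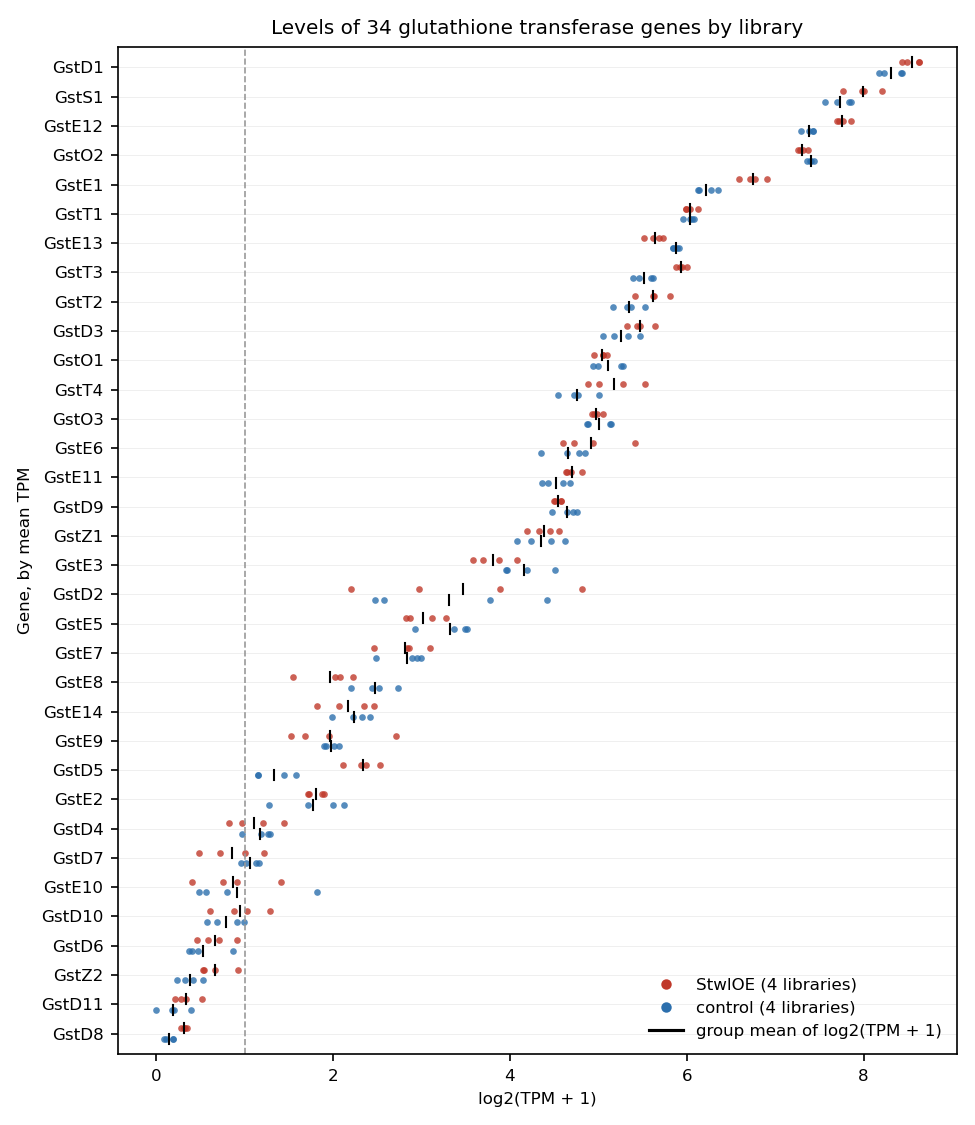
Levels of the 34 GST genes in the 8 libraries. Each row is a gene, ordered by its mean, the horizontal axis is log2(TPM + 1), points are single libraries of StwlOE and control, and short bars are group means on that scale. GstD1, GstS1, GstE12 and GstO2 lie above 100 TPM in both groups, and 7 genes average less than 1 TPM.

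A limma fit on log2(TPM + 1) over the 8898 genes averaging 1 TPM or more tested 27 of the 34 GSTs. At an adjusted p under 0.05, 4 were higher in StwlOE (14.8%; 6.2% of all tested genes were higher) and 1 was lower (3.7%; 2.18% of all tested genes were lower). The 4 that rose were GstD5, GstE1, GstT3 and GstE12, and the 1 that fell was GstE13. The median log2 fold change of the 27 was 0.03, against 0.01 over all tested genes, and 15 of the 27 were above 0. Leaving out StwlOE library 1 gave 7 higher and 1 lower. Fold changes on this scale understate the change of low genes.

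The difference in called shares between the families was not tested. For the UGTs, the same fit tested 16 of the 32 UGTs, and 5 were higher in StwlOE (31.2%, against 6.2% of all tested genes) and 1 was lower (6.25%, against 2.18%). Those that rose were Ugt302C1, Ugt301D1, Ugt35C1, Ugt49C1 and Ugt36D1, and Ugt305A1 fell. The median of the 16 was 0.23 on the log2 scale and 10 of the 16 were above 0. Ugt35C1 passed the filter on low values only through the StwlOE libraries, since its control mean was below 1 TPM, and it is the sole tested member for which that holds. Leaving out StwlOE library 1 gave 5 UGTs higher and 1 lower, and all 11 called members of both families kept an adjusted p under 0.05 without that library. In the authors' deposited table, 8 of 33 GSTs and 6 of 29 UGTs with an adjusted p were higher (10.5% of all genes) and 1 GST and 3 UGTs were lower (8.4% of all genes).

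**Figure D2:**
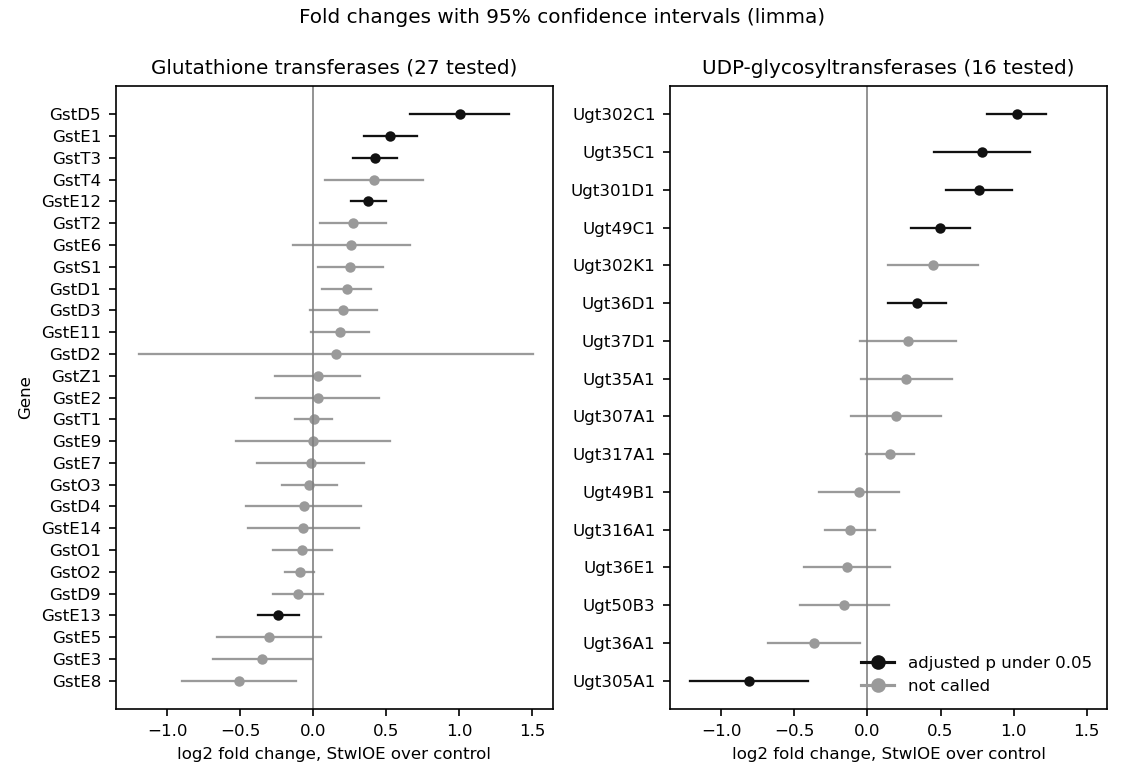
Log2 fold change of StwlOE over control for the 27 tested GSTs and the 16 tested UGTs. Points are limma estimates on log2(TPM + 1) and lines are 95% confidence intervals, in black for genes with an adjusted p under 0.05 and in grey for the rest. The 5 called GSTs lie between -0.24 and 1.00, and the 6 called UGTs between -0.81 and 1.02.

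Several marker lists of other tissues differed between the groups as well. Among all tested genes, 6.2% were higher and 2.18% were lower by limma. Of 12 genes of the muscle sheath, 10 were higher in StwlOE, with sums of 3996 to 4907 TPM against 2396 to 3250 TPM in controls. Of 8 hemocyte genes, 6 were higher, with sums of 157.9 to 233.5 TPM against 81.0 to 127.7 TPM in controls. Of 9 chorion and vitelline membrane genes, 6 were higher, all chorion genes, with log2 fold changes of 2.94 (Cp36) to 5.17 (Cp15). Of 8 tested fat body genes, Obp99a and CG5966 were lower, and 4 had an unadjusted p under 0.05. Fbp2 had a log2 fold change of 1.31 (limma adjusted p = 0.0937) and Obp44a of 0.60 (0.212). The sums of the fat body list ran from 13000 to 18810 TPM in StwlOE and from 12680 to 19850 TPM in controls. They follow Yp1 (15330 ± 2804 TPM in StwlOE and 16180 ± 3828 TPM in controls) and are not a level of fat body RNA. No other gene of the list averaged more than 69.75 TPM in a group (Obp99a in controls). No gene passed the limma test among 10 germline genes, 8 escort and early follicle genes, 6 midgut genes, 4 Malpighian tubule genes or 4 oenocyte genes. Their median log2 fold changes were -0.21 (germline), 0.23 (escort and early follicle), 0.105 (tubule) and -0.70 (oenocyte), against 0.01 over all tested genes. The midgut median was -0.96, in genes that summed to 175.4 TPM in control 3. An unadjusted p under 0.05 was reached by 4 germline, 3 escort and early follicle, 0 midgut, 2 tubule and 1 oenocyte genes. The share of all genes at that threshold was not counted. In the authors' deposited table, 5, 3, 0, 2 and 1 of the tested genes in these lists had an adjusted p under 0.05. Of all genes with an adjusted p there, 10.5% were higher and 8.4% were lower. No listed marker was at 0 in all 8 libraries. The part of any of these tissues in the GST and UGT differences was not tested.

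Summed over its members, each family was higher in every StwlOE library than in any control library. The GSTs summed to 1631 ± 67.4 TPM in StwlOE and 1429.9 ± 83.0 TPM in controls (SD, n = 4 each), a ratio of 1.141. The UGTs summed to 199.9 ± 13.8 TPM in StwlOE and 168.9 ± 10.5 TPM in controls, a ratio of 1.184. A handful of genes carried most of this RNA: GstD1, GstS1, GstE12, GstO2 and GstE1 made up 68.0% of the GST sum in StwlOE and 65.7% in controls, and Ugt317A1, Ugt36D1, Ugt316A1, Ugt301D1 and Ugt302C1 made up 73.1% of the UGT sum in StwlOE and 68.9% in controls.

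**Figure D3:**
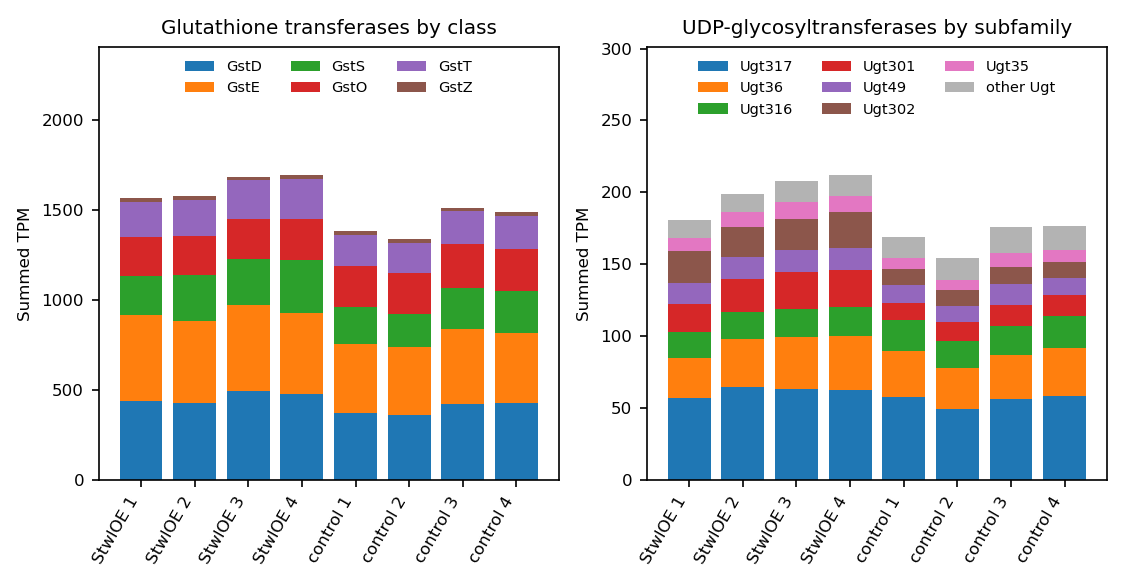
Summed TPM of the GST classes and of the UGT subfamilies in each library, stacked, with the 4 StwlOE libraries to the left of the 4 control libraries. GST sums lie between 1569 and 1695 TPM in StwlOE and between 1337 and 1512 TPM in controls, and UGT sums between 181.0 and 212 TPM in StwlOE and between 154.1 and 176.6 TPM in controls.

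The delta and epsilon classes, which are known mainly from insects and other arthropods and hold many of the enzymes linked to insecticide metabolism, gave 24 of the 34 GSTs. The epsilon class summed to 466 ± 12.4 TPM in StwlOE and 391 ± 18.4 TPM in controls, with no overlap between the groups. The sum does not describe a rise across the class. GstE12 averaged 216 ± 10.9 TPM in StwlOE and 166 ± 7.24 TPM in controls, and GstE1 107 ± 9.84 TPM and 73.7 ± 5.64 TPM. Of the 12 tested epsilon genes, 7 had a log2 fold change below 0, and the median was -0.01. The delta class summed to 459.6 ± 32.6 TPM in StwlOE and 396 ± 33.3 TPM in controls, and there the groups overlapped. Of these 24 genes, 15 have a single exon.

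GstE12 was the most abundant of the called genes. It had 217, 231, 206 and 210.5 TPM in StwlOE libraries 1 to 4, against 166, 171, 172 and 156 TPM in control libraries 1 to 4. All StwlOE libraries lay above all controls, and the difference was 0.38 on the log2 scale (SE 0.0533, limma adjusted p = 0.00315). The gene (chromosome 2R, 24766718 to 24768172, minus strand, BDGP6) lies apart from the epsilon array. It shares 33 bases with CG3894 on the other strand, and the use of strand in counting is not given in the sources used here, so reads there cannot be told apart. CG3894 averaged 32.1 ± 4.33 TPM in StwlOE and 31.5 ± 2.79 TPM in controls (adjusted p = 0.948).

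GstE1 is the most abundant gene of the epsilon array. It had 104, 95.4, 119 and 108 TPM in StwlOE libraries 1 to 4, against 68.7, 69.5, 80.5 and 76.2 TPM in control libraries 1 to 4. The groups did not overlap (log2 fold change 0.53, SE 0.0801, limma adjusted p = 0.00431). GstE1 has 1 exon (chromosome 2R, 18398393 to 18399223, plus strand) and shares 127 bases with GstE10 on the other strand. GstE10 was low and variable, at 0.887 ± 0.562 TPM in StwlOE and 1.04 ± 1.01 TPM in controls. It had 2.53 TPM in control 3 and 0.394 to 0.742 TPM in the other controls.

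The epsilon array spans 13.2 kb of chromosome 2R and holds 10 genes, 9 of them in the authors' table. GstE1 was the only called gene of the 8 tested there, and its neighbours differed in sign. GstE8 averaged 2.97 ± 0.742 TPM in StwlOE and 4.60 ± 0.836 TPM in controls (log2 fold change -0.51, limma adjusted p = 0.119). GstE3 averaged 13.1 ± 2.18 TPM in StwlOE and 17.1 ± 3.44 TPM in controls (-0.35, adjusted p = 0.222). GstE6 averaged 29.9 ± 8.19 TPM in StwlOE and 24.4 ± 3.70 TPM in controls (0.26, adjusted p = 0.470), where StwlOE library 1 had 41.6 TPM and the other StwlOE libraries 23.2 to 29.6. The members of such arrays are close copies of each other, so the assignment of reads to a single copy is uncertain.

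GstE13 was the only GST that fell. It had 48.0, 52.1, 50.5 and 44.6 TPM in StwlOE libraries 1 to 4, against 58.2, 56.4, 56.6 and 59.4 TPM in control libraries 1 to 4. The groups did not overlap, and the difference was -0.24 on the log2 scale (SE 0.0611, limma adjusted p = 0.0436). The call ended when any library other than StwlOE 1 was left out, with adjusted p between 0.0586 and 0.125, and it also ended under median-of-ratios scaling (0.0685) and with the replicate number as a block (0.0805). GstE13 stands alone on chromosome 2R (9122125 to 9123309, plus strand) and overlaps CG18659 by 6 bases.

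GstE14, also called noppera-bo, acts in ecdysteroid synthesis in the fly. It had 4.52, 4.11, 3.18 and 2.52 TPM in StwlOE libraries 1 to 4, against 4.00, 3.69, 4.35 and 2.97 TPM in control libraries 1 to 4. The groups overlapped fully (log2 fold change -0.07, 95% interval -0.45 to 0.31, limma adjusted p = 0.880). The sign turned when StwlOE library 4 was left out. Of 7 tested genes of ecdysteroid synthesis, none was called by limma, 0 had an unadjusted p under 0.05, and 0 had an adjusted p under 0.05 in the authors' deposited table. Their sums were 84.6 to 125.3 TPM in StwlOE and 81.7 to 127.4 TPM in controls. The oxygenase nvd, which acts at the first step on cholesterol, had 11.5 ± 1.08 TPM in StwlOE and 10.5 ± 0.494 TPM in controls.

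GstD1, a delta enzyme that can break down DDT in the fly and is widely used as a reporter of oxidative stress, was the most abundant GST. It had 359, 345, 394 and 393 TPM in StwlOE libraries 1 to 4, against 301, 287, 345 and 341 TPM in control libraries 1 to 4. The lowest StwlOE library lay at about the level of the highest control, just above it, and the log2 fold change of 0.23 (95% interval 0.06 to 0.40) had a limma adjusted p of 0.101. The authors' deposited table gave GstD1 a log2 fold change of 0.20 with an adjusted p of 0.0176.

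GstD5, a low delta gene, had the largest log2 fold change of the GSTs. It had 3.34, 4.16, 4.76 and 4.00 TPM in StwlOE libraries 1 to 4, against 1.22, 1.22, 1.73 and 1.99 TPM in control libraries 1 to 4. Every StwlOE library exceeded every control (1.00, SE 0.151, limma adjusted p = 0.00420). The authors' deposited table gave 1.38 from a mean normalised count of 41.7 (adjusted p = 6.73e-06). GstD5 is a gene of 1 exon (chromosome 3R, 12375733 to 12376572, plus strand) inside the delta array.

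The delta array holds all 11 delta genes within 20.85 kb of chromosome 3R, with means from 0.176 TPM (GstD8) to 346 TPM (GstD1). GstD5 was the only called gene of the 6 tested. GstD3 averaged 43.3 ± 4.05 TPM in StwlOE and 37.6 ± 4.87 TPM in controls (limma adjusted p = 0.297), and GstD9 averaged 22.3 ± 0.641 TPM in StwlOE and 24.1 ± 2.13 TPM in controls (adjusted p = 0.502). GstD2 varied most among the tested GSTs, with 3.60, 6.82, 27.1 and 13.8 TPM in StwlOE libraries 1 to 4, against 4.56, 4.96, 12.7 and 20.4 TPM in control libraries 1 to 4. Its coefficient of variation was 81.1% in StwlOE and 70.4% in controls, against medians over the tested GSTs of 11.2% in StwlOE and 12.4% in controls, so its difference of 0.15 (SE 0.599) was far inside the spread.

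**Figure D4:**
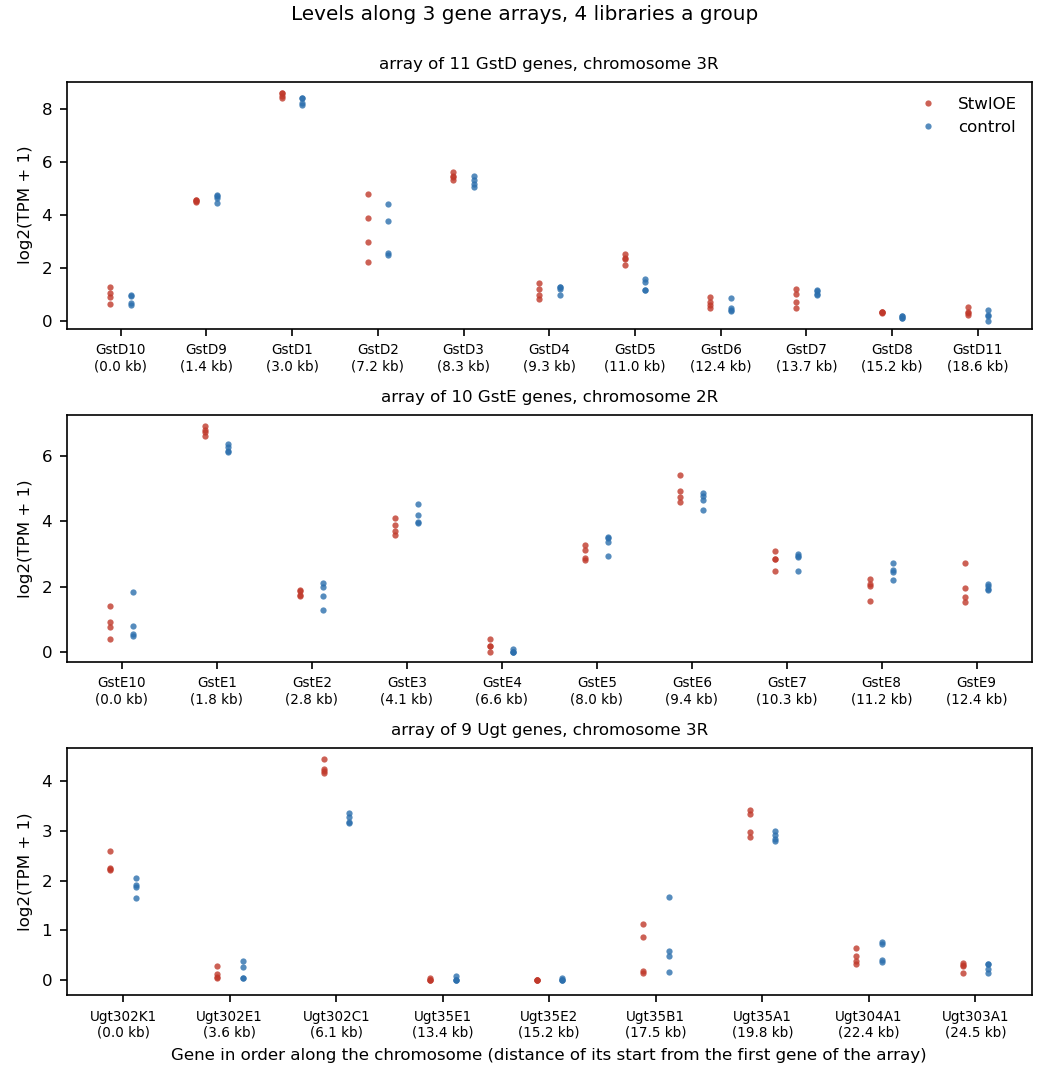
Levels along the delta GST array, the epsilon GST array and the UGT array of chromosome 3R. Genes stand in chromosome order with the distance of each start from the first gene of the array in kb, the vertical axis is log2(TPM + 1), and points are the 4 StwlOE and the 4 control libraries. Genes of an array differ widely in level, from 0.176 to 346 TPM in the delta array, and the called genes are GstD5, GstE1 and Ugt302C1.

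The theta class was higher as a sum in every StwlOE library and held 1 called gene. It summed to 209 ± 12.0 TPM in StwlOE and 175.9 ± 10.2 TPM in controls, with no overlap. GstT3 had 57.7, 59.8, 63.3 and 60.8 TPM in StwlOE libraries 1 to 4, against 41.0, 43.2, 48.3 and 47.2 TPM in control libraries 1 to 4. Its groups were well separated (log2 fold change 0.42, SE 0.0667, limma adjusted p = 0.00502). The gene lies on chromosome X (20467455 to 20469796, plus strand).

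The other theta genes were not called by limma, while the authors' deposited table gave GstT4 an adjusted p of 0.00906 and GstT2 one of 0.0161. GstT4 had 28.5, 31.2, 37.9 and 45.3 TPM in StwlOE libraries 1 to 4, against 22.4, 25.4, 31.1 and 26.4 TPM in control libraries 1 to 4 (0.41, 95% interval 0.08 to 0.75, limma adjusted p = 0.136). GstT2 had 41.8, 48.3, 48.7 and 55.1 TPM in StwlOE libraries 1 to 4, against 39.2, 35.0, 40.5 and 45.3 TPM in control libraries 1 to 4 (0.27, adjusted p = 0.148). In both genes StwlOE library 1 was the lowest of its group and overlapped the controls. Without that library the adjusted p was 0.0470 for GstT4 and 0.0430 for GstT2, and under median-of-ratios scaling it was 0.0409 for GstT4 and 0.0303 for GstT2. GstT1, next to GstT2 on chromosome 2R, averaged 64.8 ± 3.05 TPM in StwlOE and 64.7 ± 2.41 TPM in controls (0.00, 95% interval -0.12 to 0.13).

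GstS1 is the sigma-class GST of the fly, abundant in flight muscle and active on products of lipid peroxidation. It had 217, 252, 256 and 296 TPM in StwlOE libraries 1 to 4, against 207, 188, 227 and 231 TPM in control libraries 1 to 4. StwlOE library 1 lay within the control range and the other StwlOE libraries above it. The log2 fold change was 0.25 (95% interval 0.03 to 0.48, limma adjusted p = 0.168). Without StwlOE library 1 it was 0.33 (limma adjusted p = 0.0399). With all 8 libraries and median-of-ratios scaling it was 0.22 (limma adjusted p = 0.0304). The authors' deposited table also gave 0.22 (adjusted p = 0.00316). The muscle sheath sum was higher in all StwlOE libraries, library 1 included (3996 TPM, against at most 3250 TPM in controls), and its part in the GstS1 level was not tested.

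The omega class, whose enzymes use a cysteine in place of the serine or tyrosine of other GSTs, had no called gene, at an unadjusted p under 0.05 either. GstO2 had 152, 155, 159 and 164 TPM in StwlOE libraries 1 to 4, against 169, 167, 173 and 164 TPM in control libraries 1 to 4. The groups met at their edges (-0.09, 95% interval -0.19 to 0.01, limma adjusted p = 0.268). GstO1 averaged 31.9 ± 1.34 TPM in StwlOE and 33.8 ± 4.19 TPM in controls, and GstO3 averaged 30.6 ± 1.25 TPM in StwlOE and 31.3 ± 3.40 TPM in controls. The gene se, an omega enzyme of red eye pigment (drosopterin) synthesis that the symbol rule leaves out, overlaps GstO2 by 61 bases and averaged 0.166 ± 0.140 TPM in StwlOE and 0.0893 ± 0.0972 TPM in controls.

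The zeta class is known for maleylacetoacetate isomerase, a step of tyrosine breakdown. GstZ1 had 22.5, 21.0, 17.3 and 19.1 TPM in StwlOE libraries 1 to 4, against 23.7, 21.1, 15.9 and 17.9 TPM in control libraries 1 to 4. The ranges overlapped nearly completely (0.03, 95% interval -0.26 to 0.32, limma adjusted p = 0.930), and the sign turned when StwlOE 1, control 3 or control 4 was left out. Its neighbour GstZ2 had 0.458, 0.441, 0.899 and 0.590 TPM in StwlOE libraries 1 to 4, against 0.338, 0.179, 0.251 and 0.445 TPM in control libraries 1 to 4, and was too low to test. Of 5 genes of tyrosine breakdown, 3 were tested and none was called by limma, while 1 had an unadjusted p under 0.05 and 1 an adjusted p under 0.05 in the authors' deposited table. Tat, the tyrosine aminotransferase, averaged 27.7 ± 2.99 TPM in StwlOE and 21.8 ± 1.57 TPM in controls (0.33, adjusted p = 0.0560).

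**Figure D5:**
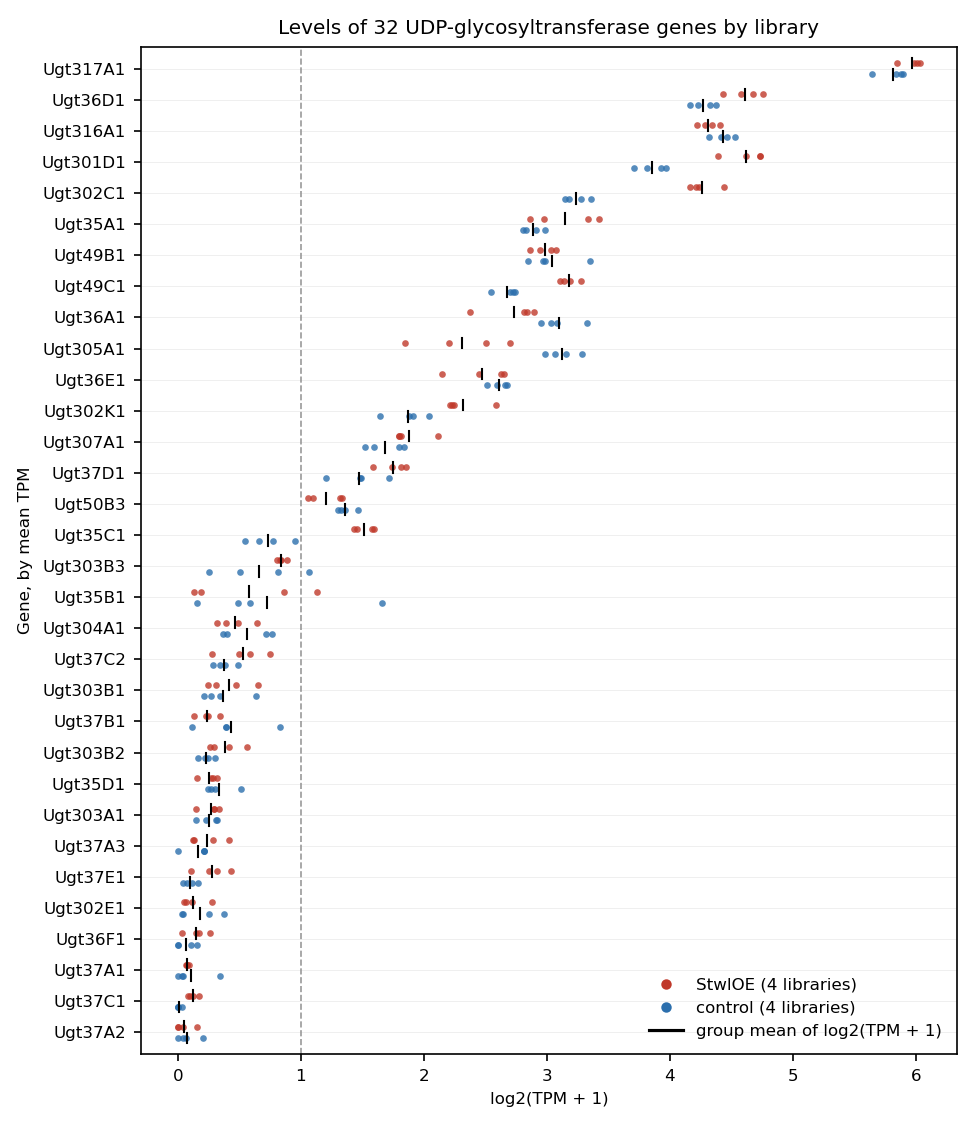
Levels of the 32 UGT genes in the 8 libraries. Rows are genes ordered by their mean, the horizontal axis is log2(TPM + 1), points are single libraries of StwlOE and control, and short bars are group means on that scale. Ugt317A1 leads, 5 genes average 10 to 100 TPM, and 16 genes average less than 1 TPM.

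Ugt302C1 had the smallest adjusted p of the 43 tested members and, with a pseudocount of 1, the largest log2 fold change. With a pseudocount of 0.1 the log2 fold change was 1.1 for Ugt302C1, 1.38 for Ugt35C1 and 1.36 for GstD5. It had 16.9, 17.5, 17.9 and 20.8 TPM in StwlOE libraries 1 to 4, against 7.86, 8.07, 9.25 and 8.71 TPM in control libraries 1 to 4. The lowest StwlOE library was far above the highest control (1.02, SE 0.0900, limma adjusted p = 0.000253), a fold of 2.03 (95% interval 1.76 to 2.34). It lies on chromosome 3R (11157098 to 11159744, plus strand) in an array of 9 UGT genes over 26.89 kb, of which 3 were tested and 1 was called.

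The neighbours of Ugt302C1 had smaller differences. Ugt302K1 had 5.02, 3.73, 3.63 and 3.69 TPM in StwlOE libraries 1 to 4, against 3.12, 2.77, 2.12 and 2.68 TPM in control libraries 1 to 4. Its groups did not overlap, but the limma test was not passed (0.45, 95% interval 0.14 to 0.76, limma adjusted p = 0.0852). The authors' deposited table gave Ugt302K1 a log2 fold change of 0.57 (adjusted p = 0.0483). Ugt35A1 averaged 8.0 ± 1.68 TPM in StwlOE and 6.39 ± 0.433 TPM in controls (0.27, limma adjusted p = 0.316). The other members in the array, Ugt302E1, Ugt35B1, Ugt304A1 and Ugt303A1, were below 1 TPM on average. The 302 subfamily summed to 22.4 ± 1.45 TPM in StwlOE and 11.3 ± 0.350 TPM in controls. Most of that was Ugt302C1 itself, with 18.3 ± 1.71 TPM in StwlOE and 8.47 ± 0.634 TPM in controls.

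Ugt301D1 had 19.9, 23.6, 25.6 and 25.7 TPM in StwlOE libraries 1 to 4, against 12.0, 13.1, 14.3 and 14.6 TPM in control libraries 1 to 4. The groups were clearly apart (0.76, SE 0.10, limma adjusted p = 0.00217), a fold of 1.70 (95% interval 1.45 to 1.99). The gene stands alone on chromosome 2L (18509560 to 18513512, plus strand). The authors' deposited table marked Ugt301D1, Ugt302C1, Ugt35C1 and GstD5 as Up and Ugt305A1 as Down, and no other called member. The smallest absolute log2 fold change it marks is 0.60.

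Ugt35C1 had 1.99, 2.02, 1.74 and 1.70 TPM in StwlOE libraries 1 to 4, against 0.580, 0.706, 0.935 and 0.462 TPM in control libraries 1 to 4. All controls were below 1 TPM and all StwlOE libraries above it (0.78, SE 0.146, limma adjusted p = 0.0107). With a control mean of 0.671 TPM, Ugt35C1 passed the filter of 1 TPM only through the StwlOE libraries. The authors' deposited table gave a log2 fold change of 1.45. The gene lies on chromosome 3R (11126597 to 11128328, minus strand), outside the array that holds Ugt35A1 and Ugt35B1.

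Ugt49C1 had 7.81, 7.62, 8.11 and 8.68 TPM in StwlOE libraries 1 to 4, against 5.68, 5.51, 5.61 and 4.83 TPM in control libraries 1 to 4. The groups did not overlap (0.50, SE 0.0906, limma adjusted p = 0.00956). Its neighbour Ugt49B1 on chromosome 2R averaged 6.91 ± 0.517 TPM in StwlOE and 7.29 ± 1.31 TPM in controls (-0.06, adjusted p = 0.855). Ugt49B1 shares 90 bases with CG44245, which was higher in StwlOE (94.0 ± 13.6 TPM in StwlOE and 51.4 ± 7.5 TPM in controls, adjusted p = 0.00334).

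Ugt36D1 had 20.6, 22.9, 24.5 and 26.1 TPM in StwlOE libraries 1 to 4, against 19.7, 16.9, 17.8 and 19.1 TPM in control libraries 1 to 4. StwlOE library 1 was only just above the highest control (0.34, SE 0.0886, limma adjusted p = 0.0480). The call ended when any library other than StwlOE 1 was left out, with adjusted p between 0.0750 and 0.133, and it ended with no filter on low values (0.0697), with a minimum mean of 5 TPM (0.0506) and with the replicate number as a block (0.0720). Its neighbour Ugt36E1, known from olfactory neurons of the fly, averaged 4.59 ± 0.850 TPM in StwlOE and 5.11 ± 0.310 TPM in controls (-0.14, adjusted p = 0.617).

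Ugt305A1 was the only UGT that fell. It had 2.59, 3.61, 4.67 and 5.49 TPM in StwlOE libraries 1 to 4, against 7.40, 6.93, 7.90 and 8.78 TPM in control libraries 1 to 4. Every StwlOE library was below every control, although the StwlOE libraries themselves differed widely (-0.81, SE 0.179, limma adjusted p = 0.0227). The call ended without StwlOE 2 (0.0722), control 1 (0.0582), control 3 (0.0609) or control 4 (0.0741). The gene lies on chromosome 3L (4059770 to 4061923, plus strand).

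The most abundant UGT, Ugt317A1, had 56.6, 64.5, 63.5 and 62.2 TPM in StwlOE libraries 1 to 4, against 57.8, 49.0, 56.2 and 58.4 TPM in control libraries 1 to 4. StwlOE library 1 lay within the control range (0.16, 95% interval -0.01 to 0.32, limma adjusted p = 0.262). Ugt316A1 had 17.6, 18.5, 19.3 and 20.3 TPM in StwlOE libraries 1 to 4, against 21.1, 18.9, 20.3 and 22.1 TPM in control libraries 1 to 4, with overlap (-0.12, adjusted p = 0.428). Ugt36A1 had 4.20, 6.05, 6.17 and 6.43 TPM in StwlOE libraries 1 to 4, against 7.21, 6.76, 7.48 and 9.03 TPM in control libraries 1 to 4. Its StwlOE libraries all lay below the controls (-0.37, 95% interval -0.68 to -0.05, adjusted p = 0.159). The authors' deposited table gave Ugt36A1 a log2 fold change of -0.45 (adjusted p = 0.00427) and Ugt316A1 one of -0.16 (adjusted p = 0.0483).

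The uncalled members had estimates of either sign, and some had wide intervals. On the log2 scale the 22 uncalled tested GSTs ranged from -0.51 to 0.41, and the 10 uncalled tested UGTs from -0.37 to 0.45. The 95% interval reached from -1.19 to 1.5 for GstD2 and from -0.90 to -0.12 for GstE8. The 7 GSTs too low to test had means of 0.176 to 0.966 TPM and the 16 UGTs too low to test had means of 0.0466 to 0.703 TPM, and they were outside the main test. With no filter on low values all 23 were fitted and 1 was called, GstD8, with 0.246 ± 0.0227 TPM in StwlOE and 0.106 ± 0.0424 TPM in controls (log2 fold change 0.17, limma adjusted p = 0.0371). The authors' deposited table gave 19 of the 23 an adjusted p, and 0 of these were under 0.05. GstD8 was not among the 19. That table gave it a mean normalised count of only 2.50 and a log2 fold change of 1.21 (SE 0.969). The 23 included all 4 members of the 303 subfamily and 7 of the 8 members of the 37 subfamily, of which Ugt37D1 was the tested one (2.37 ± 0.267 TPM in StwlOE and 1.80 ± 0.400 TPM in controls, limma adjusted p = 0.322).

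Some low members were high in a single control library, control 3. GstE10 had 2.53 TPM there and 0.394 to 0.742 TPM in the other controls, with 0.321 to 1.65 TPM in StwlOE. Ugt35B1 had 2.16 TPM there and 0.117 to 0.505 TPM in the other controls, with 0.0965 to 1.19 TPM in StwlOE. The midgut markers, digestive enzyme genes and the immune amidase PGRP-SC1a (42.5 TPM in control 3), summed to 175.4 TPM in control 3, against 0.617 to 7.09 TPM in StwlOE and at most 7.55 TPM in the other controls, and the Malpighian tubule markers also peaked there (25.4 TPM). Control 3 was the highest of the 8 libraries for 6 of the 34 GSTs and 7 of the 32 UGTs, 17.6% and 21.9%, against 10.6% of all genes in the authors' table. The part of gut or tubule RNA in these levels was not tested.

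The libraries with the highest and lowest levels were also counted, with no test. StwlOE library 1 was the highest of the 8 for 8 of the 34 GSTs (23.5%), against 6.92% of all genes, and the lowest for 5 (14.7%), against 40.7% of all genes. Among UGTs it was the highest for 5 of 32 (15.6%) and the lowest for 7 (21.9%). StwlOE library 4 was the highest for 36.0% of all genes, for 11.8% of GSTs and for 21.9% of UGTs.

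Genes that supply or use the same metabolites were counted in the same way, against 6.2% higher and 2.18% lower among all tested genes. Of 12 tested genes of glutathione synthesis and redox control, 2 were higher and none lower: the peroxiredoxin Jafrac1 averaged 1051 ± 33.2 TPM in StwlOE and 890.5 ± 31.2 TPM in controls (0.24, limma adjusted p = 0.00834), and Ggt-1, a gamma-glutamyl transpeptidase, averaged 32.1 ± 2.36 TPM in StwlOE and 26.4 ± 1.17 TPM in controls (0.27, adjusted p = 0.0477). Gclc, the catalytic subunit of the enzyme that limits glutathione synthesis, had a log2 fold change of 0.03. Of 8 genes of UDP-sugar supply, none was called by limma, at an unadjusted p under 0.05 or in the authors' deposited table. The gene sgl, which makes UDP-glucuronate, averaged 57.1 ± 7.87 TPM in StwlOE and 55.7 ± 2.41 TPM in controls.

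Of 4 other tested genes with a GST-like fold or GST activity, 1 was higher. This was Mgstl, a microsomal GST, with 131.6 ± 7.36 TPM in StwlOE and 105.7 ± 5.59 TPM in controls (0.31, limma adjusted p = 0.0118). Of 4 tested export transporters, Mdr65, an ABC transporter of the fly blood-brain barrier, was higher, with 4.33 ± 0.605 TPM in StwlOE and 2.37 ± 0.363 TPM in controls (0.66, adjusted p = 0.0160). Of 5 tested genes listed for pteridine pigments, Pu, the GTP cyclohydrolase that starts the pathway, was higher, with 13.2 ± 3.49 TPM in StwlOE and 6.18 ± 1.05 TPM in controls (0.96, adjusted p = 0.00990). That list also holds r, a pyrimidine synthesis gene. Of 5 tested regulators of xenobiotic response none was called by limma or had an unadjusted p under 0.05, and 1 had an adjusted p under 0.05 in the authors' deposited table. The gene cnc, the transcription factor that drives many GSTs in the fly, averaged 66.2 ± 9.49 TPM in StwlOE and 73.9 ± 1.91 TPM in controls (-0.17, adjusted p = 0.370).

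The authors' deposited table also marks genes with a Stwl peak no more than 1 kb away, from a source it does not name. A peak was marked for 26 of 34 GSTs (76.5%) and 22 of 32 UGTs (68.8%), against 73.7% of all genes in the table. Of the 11 called members, GstE13, Ugt305A1, Ugt35C1 and Ugt49C1 had none. The table further names other studies in which a gene was upregulated, with their conditions not given. This mark was on 10 of 34 GSTs (29.4%), on none of the 32 UGTs, and on 21.2% of all genes. The 10 marked GSTs were GstD2, GstD3, GstD5, GstD10, GstE2, GstE3, GstE12, GstO3, GstS1 and GstT4. Of these, GstD5 and GstE12 were called higher by limma, as were 6.2% of all tested genes, and GstD10 was too low to test.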

How the data were processed

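Values were read for 8 libraries, 4 StwlOE and 4 control. The authors deposited TPM for 14094 genes. Per the file headers these are log2 TPM, but every column has the same sum and reaches values far beyond any log2 scale, so they were used as linear TPM. The submitters' processing notes name the tools Salmon (1.10.1) and DESeq2 (1.37.4) and the build BDGP 6 without saying what each was for. The authors' deposited comparison of 11397 genes holds the mean normalised count (a signal), the log2 fold change and its error, a test statistic (a score) and p-values, raw and adjusted, per the file headers. DESeq2 was not run here because no counts were used.

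The 8898 genes averaging 1 TPM or more were tested on log2(TPM + 1) in R 4.3.3 by limma 3.58.1 with an empirical Bayes trend, the group as the only term and Benjamini-Hochberg adjustment over all tested genes at a threshold of 0.05. The fit was tested on simulated data. Symbols came from the authors' table for 11396 genes and from a gene name table for 2694 others, which include the 4 family genes outside the rule. Coordinates, exons and overlaps came from Ensembl release 115 (BDGP6). Genes were grouped in arrays where gaps were under 20 kb. Python 3.11.15 and matplotlib 3.10.9 made the figures. TPM keeps no depth, so no counting interval could be given and precision rests on 4 replicates a group. The closing part gives the alternatives: another pseudocount, other filters, another scaling, library weights, a replicate block, each library left out, and the authors' test.

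Members with an adjusted p under 0.05, the 5 most abundant of each family and GstE14, GstS1, GstD1, GstO2, GstZ1, GstZ2 and GstT4 are given with all library values, and other members by range or where they help to place these. The members, gene lists and tests were chosen with earlier results of these data known. Sequences were not used here.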

Additional observations from a re-analysis of the deposited data

Results flagged for a closer look

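Within each group of 4 libraries, a library was set apart where its gap to the nearest other library took up more of the group's range than the 95% critical value of Dixon's test allows. Chance sets apart about 1 in 20 groups, and 2 of the 46 groups examined were so marked. Examined were members with an adjusted p under 0.05 by limma or in the authors' deposited table. The 5 most abundant of each family and the members picked for a known endogenous role were added. Other members, such as GstE10 with its high control 3, were not examined. The share marked therefore does not describe all members. Ugt302K1 had 5.02 TPM in StwlOE library 1 and 3.63 to 3.73 TPM in the other StwlOE libraries (gap over range 0.912), against 2.12 to 3.12 TPM in controls. Ugt36A1 had 4.20 TPM in StwlOE library 1 and 6.05 to 6.43 TPM in the other StwlOE libraries (0.852), against 6.76 to 9.03 TPM in controls. The same library was the highest in 1 gene and the lowest in the other.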

How the results depend on the processing

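Of the 11 called members, 8 kept an adjusted p under 0.05 in every setting in which they were tested, and GstE13, Ugt36D1 and Ugt305A1 lost it in at least 1. GstD5 and Ugt35C1 could not be tested at a minimum mean of 5 TPM, where 3 UGTs were higher. Median-of-ratios scaling, which put the median of all tested genes at -0.0153 in place of 0.0143 (log2), gave 7 GSTs higher and 0 lower and 2 UGTs lower. Library weights gave 9 GSTs higher and 3 lower and 8 UGTs higher and 2 lower, with a weight of 7.29 on StwlOE library 3 and 0.15 to 0.802 on the other StwlOE libraries, so these counts rest mostly on 1 StwlOE library. The authors' deposited test gave 8 GSTs higher and 3 UGTs lower. With 1 library left out, between 4 and 7 GSTs were higher, 0 or 1 lower, 4 or 5 UGTs higher and 0 or 1 lower. For uncalled GstZ1 the sign turned with library weights (-0.0231), and it ran from -0.0596 to 0.122 with 1 library left out. GstE14 ran from -0.164 to 0.0523. The cause of these changes was not tested.

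Whether the replicate numbers pair the samples is not given. Same-numbered samples had correlations of 0.128, -0.0174, -0.134 and 0.144 in their deviations from the group means. Samples with different numbers had correlations from -0.246 to 0.271. These values cover all tested genes together and do not settle pairing for single genes. With the replicate number as a block, the SE fell from 0.0741 to 0.0383 for GstD1 and from 0.129 to 0.0692 for GstZ1. For GstE13 it rose from 0.0611 to 0.0658. With the replicate block, 5 GSTs were higher and 1 lower, and 4 UGTs were higher and 1 lower, but not the same members: GstD1 (adjusted p = 0.0178, higher) and GstE3 (0.0359, lower) were called, and GstE13 (0.0805) and Ugt36D1 (0.0720) were not.

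No depth was known, so a limit on low members could not be set.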
